A study of Homo sapiens with 18 samples.

Results

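Aminoacyl-tRNA synthetases attach each amino acid to its transfer RNA, and 35 of their genes are described here, 19 for cytosolic enzymes and 16 for mitochondrial ones. They came from a list of gene symbols that was matched through GENCODE 44 to the Ensembl identifiers of the deposited expression table, which lists 15258 genes. All 35 were found, and all 35 were among the 14512 genes that were tested because they averaged at least 1 TPM (transcripts per 1e+06 transcripts, a level corrected for gene length and sequencing depth). The data were RNA-seq libraries of mRNA from MEL624, an established human melanoma cell line, in 3 lines with 3 replicate libraries each, lettered A to C. The control line was wild type with a random sgRNA, and the lines labelled KO1 and KO2 were 2 independent clones with a knockout of PCIF1, all grown in the same serum-supplemented medium with no treatment named. Each genotype is thus represented by 1 control line and 2 clones, so the p-values below reflect how much replicate libraries of the same line varied, and say nothing of variation among independently edited lines. PCIF1 is the enzyme that methylates an adenosine at the first transcribed position of capped mRNAs, and the study asked what its loss does to RNA.

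Synthetases fall into class I and class II, which have unrelated catalytic folds. In the cytosol several of them, together with the scaffold proteins AIMP1, AIMP2 and EEF1E1, form the multisynthetase complex. The members among the genes here are EPRS1 (glutamate and proline), IARS1 (isoleucine), KARS1 (lysine), LARS1 (leucine), MARS1 (methionine), QARS1 (glutamine) and RARS1 (arginine). Mitochondria have their own translation system, and most of its synthetases are encoded by separate nuclear genes, whose symbols end in 2. KARS1 and GARS1 (glycine) serve both compartments and are counted here as cytosolic. When a tRNA lacks its amino acid, the kinase GCN2 (gene EIF2AK4) phosphorylates eIF2, and translation of the transcription factor ATF4 rises. ATF4 with C/EBP partners activates amino acid synthesis genes, transporters and many cytosolic synthetase genes through the C/EBP-ATF response element.

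RefSeq promoter windows (build GRCh38.p14, 250 bases before to 50 bases after the annotated start) were matched for 30 of the 35 genes, 16 cytosolic and 14 mitochondrial. LARS1, VARS1, YARS1, AARS2 and VARS2 were not matched. Each stretch below is 30 bases of such a window, 5′ to 3′ on the strand of the gene, and positions count from 0 at the start. The first set is shown because it holds the ATF4 response element core TGATGNAA, on either strand, in capitals. The 8-letter core was searched after the 9-letter form TGATGNAAT had been found in 1 cytosolic promoter, that of TARS1 (threonine), and in none of the 14 mitochondrial ones. The core began at -13 in IARS1, -4 in MARS1, -2 in CARS1 (cysteine), 2 in TARS1, 14 in NARS1 (asparagine) and -187 in AARS1 (alanine).
IARS1 chr9:92293692-92293721 (minus strand): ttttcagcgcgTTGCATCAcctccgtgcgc
MARS1 chr12:57488053-57488082 (plus strand): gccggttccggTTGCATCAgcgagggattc
CARS1 chr11:3057407-3057436 (minus strand): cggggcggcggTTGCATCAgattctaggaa
TARS1 chr5:33440956-33440985 (plus strand): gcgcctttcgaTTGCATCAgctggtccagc
NARS1 chr18:57621804-57621833 (minus strand): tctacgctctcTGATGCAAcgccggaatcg
AARS1 chr16:70289675-70289704 (minus strand): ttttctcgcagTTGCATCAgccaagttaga

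The core stood in 6 of 16 cytosolic promoters (37.5%) and in 1 of 14 mitochondrial ones (7.14%), that of YARS2 (tyrosine). The share over all 27305 RefSeq windows was 3.67%, and over the 10315 windows of tested genes it was 1.7%. Among 30 matched promoters of other listed ATF4 target genes it was 20%. In 4 of the 6 cytosolic genes the match began within 13 bases of the start, and in 5 of the 6 the letters on the gene's strand were TTGCATCA. The cyclic AMP response element TGACGTCA was in none of the 30 member promoters, against 3.33% of those of tested genes. The 6-letter E-box CACGTG, a binding sequence of MYC and related factors that reads the same on both strands, was in 3 of 14 mitochondrial promoters (21.4%) and in 1 of 16 cytosolic ones (6.25%, IARS1), against 10.4% for tested genes. The mitochondrial E-boxes lay close to the start, at -3 in CARS2 (cysteine), -15 in EARS2 (glutamate) and -11 in MARS2 (methionine). They are shown because CARS2 and MARS2 had the largest rises among the mitochondrial genes, so the choice followed the fold changes. The other E-box genes, EARS2 and IARS1, were called lower in KO1 (log2 fold changes -0.13 and -0.45). In KO2 EARS2 was not called (-0.10) and IARS1 was called higher (0.14). A link between the E-box and these changes was not tested.
CARS2 chr13:110706501-110706530 (minus strand): tgctgggatgcaCACGTGcttcgctaacag
EARS2 chr16:23557348-23557377 (minus strand): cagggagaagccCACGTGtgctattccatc
MARS2 chr2:197705346-197705375 (plus strand): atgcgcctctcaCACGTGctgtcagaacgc

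The annotated first base was A, the base on which PCIF1 acts, in 8 of 16 cytosolic promoters (50%) and 4 of 14 mitochondrial ones (28.6%), against 45.1% for tested genes. These matches describe letters in a window, and occupancy was not measured.

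Libraries held 7848089 to 11393206 reads on genes, as recovered from the deposited values. The synthetases took 0.741% to 0.851% of them, and a synthetase had from 91 reads (FARS2, phenylalanine) to 6967 reads in a library. Over the 105 combinations of gene and line, the median coefficient of variation across replicates was 2.81% and the highest 12.1%. Pearson's r of log2 TPM across genes was 0.987 to 0.990 between libraries of a line and 0.947 to 0.970 between lines. PCIF1 mRNA was at 55.2 to 62.0 TPM in control, 22.0 to 25.3 in KO1 and 58.0 to 64.7 in KO2, so its level separated KO1 from control and did not separate KO2, whose genotype rests on the label. An edited gene can still be transcribed. Of 12 melanocyte markers, MITF, MC1R and PAX3 had values, and the other 9 were looked for and not found among the genes of the deposited table. The summed level of MITF, MC1R and PAX3 was 52.4 to 55.6 TPM in control, 51.1 to 54.9 in KO1 and 66.5 to 71.7 in KO2. The sum hides opposite changes in KO1, where MITF was lower (-0.50, adjusted p = 0.000531) and MC1R (0.40, adjusted p = 0.0112) and PAX3 (0.92, adjusted p = 0.000108 in limma) were higher. In KO2 MITF (0.43, adjusted p = 0.00127) and PAX3 (0.40, adjusted p = 0.0134) were higher and MC1R was at -0.13 (adjusted p = 0.358). Markers of other cell types with values were ESAM and EGFL7 (2 of 8 endothelial, summed 8.57 to 9.55 TPM in control, 16 to 16.9 in KO1 and 15.5 to 17.7 in KO2), CD68 (1 of 8 blood, 180 to 192, 129 to 139 and 134 to 143), KRT8 and KRT18 (2 of 8 epithelial, 1060 to 1080, 948 to 988 and 851 to 928) and 4 of 8 fibroblast genes (12.9 to 13.1, 13.7 to 15.0 and 11.1 to 11.5). Among the fibroblast genes LUM was at 0.0665 ± 0.0593 TPM in control, 2.39 ± 0.430 in KO1 and 1.15 ± 0.330 in KO2 (SD, n = 3), while PDGFRB was lower in both clones (-0.28 and -0.36, adjusted p = 0.0193 and 0.00596 in limma). Their part in the results below was not tested, and in these bulk libraries fewer cells of a state cannot be told apart from less RNA per cell.

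Cytosolic synthetase mRNAs were the more abundant set. In the control line they ranged from 55.1 ± 0.234 TPM (CARS1) to 543 ± 24.3 TPM (FARSA, the catalytic subunit of the phenylalanine enzyme) (SD, n = 3). Mitochondrial ones ranged from 18.7 ± 0.0680 TPM (FARS2) to 249 ± 5.11 TPM (IARS2, isoleucine). The control libraries held 1335 to 1793 reads of CARS1 and 105 to 143 of FARS2, so the SDs of CARS1 and FARS2 are smaller than counting error. By the mean over all 9 libraries FARSA ranked first of 35, followed by NARS1, AARS1, GARS1 and EPRS1, and the 10 highest were all cytosolic. IARS2 ranked 11 and YARS2 18, while the other 14 mitochondrial genes held ranks from 21 down. The lowest cytosolic gene, CARS1, ranked 23. Summed over each set, cytosolic mRNA was 4735 ± 18.3 TPM and mitochondrial mRNA 883 ± 16.8 TPM in control, a ratio of 5.36 ± 0.0967 (SD, n = 3).

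**Figure D1:**
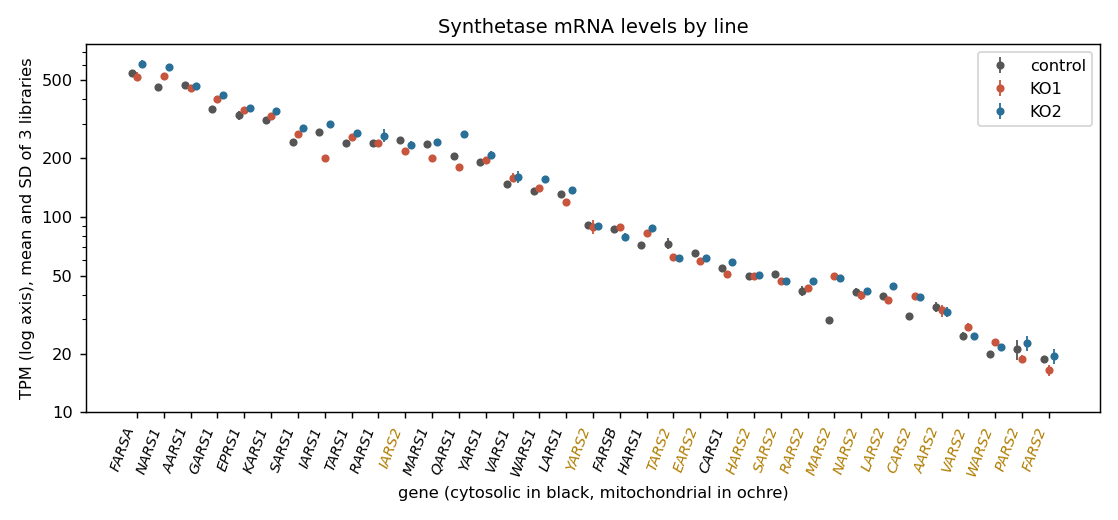
Mean TPM (log axis, bars are SD of 3 libraries) of the 35 synthetase genes in control (grey), KO1 (red) and KO2 (blue), ordered by the mean over all libraries, cytosolic names in black and mitochondrial names in ochre. FARSA is highest in the order and FARS2 lowest, and most genes differ far more from each other than between lines. IARS1 and QARS1 are among those whose 3 points stand apart. For MARS2 the control point stands apart from those of both clones, which lie close together.

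In KO1 synthetases were called in both directions. Of the 19 cytosolic genes 5 were higher and 4 lower than in control, and of the 16 mitochondrial genes 3 were higher and 4 lower, at an adjusted p under 0.05 in limma with Benjamini-Hochberg adjustment over all 14512 tested genes. The background was 34.3% of tested genes called (20.2% higher, 14.1% lower). Of all called genes 58.9% were higher in KO1, a share that became 49.7% with each library centred on its median gene. The synthetases then went from 8 higher and 8 lower to 5 higher and 10 lower, and to 7 higher and 10 lower with quantile normalization. The median log2 fold change was 0.04 for the cytosolic set, equal to the 0.04 over all tested genes, and it was 0.01 with median centring and -0.01 with limma-voom on the recovered reads. For the mitochondrial set it was -0.06. All 4 cytosolic genes that fell were members of the multisynthetase complex, whose 7 genes had 0 called higher and a median of -0.13. The 12 cytosolic genes outside the complex had 5 called higher, 0 called lower and a median of 0.08, but CARS1 among them was called lower with median centring (-0.15, adjusted p = 0.0226), quantile normalization (-0.12, adjusted p = 0.0464) and limma-voom (-0.16, adjusted p = 0.00597). Replicate ranges of KO1 and control did not overlap for 15 of the 19 cytosolic genes (10 above, 5 below) and for 10 of the 16 mitochondrial ones (4 above, 6 below). By that rule 49.9% of tested genes did not overlap (29.1% above, 20.7% below).

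IARS1, which charges isoleucine tRNA, fell most among the members in KO1. It was at 280, 268 and 272 TPM in the control libraries, 193, 203 and 204 in KO1, and 307, 300 and 296 in KO2. Every KO1 library lay below and every KO2 library above all control libraries. The log2 fold change in KO1 was -0.45 (SE 0.0342, adjusted p = 9.75e-06 in limma), which is 73.1% of the control level. In KO2 it was 0.14 (SE 0.0342, adjusted p = 0.0121), a call that was lost without control replicate B (0.12, adjusted p = 0.0529).

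QARS1, the glutamine enzyme, also lay on opposite sides of control in the clones. Its levels were 201, 204 and 209 TPM in control, 178, 180 and 181 in KO1, and 267, 274 and 261 in KO2. The 3 lines did not overlap. It fell in KO1 by 0.19 on the log2 scale (SE 0.0323, adjusted p = 0.00172) and rose in KO2 by 0.38 (SE 0.0323, adjusted p = 1.67e-05 in limma). The KO2 value sat beside a median of 0.37 for its 50 nearest tested genes on chromosome 3, which is taken up below.

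MARS1, which charges both initiator and elongator methionine tRNAs, was lower in KO1 alone by the test against control. The control libraries had 228, 240 and 240 TPM, the KO1 libraries 202, 203 and 197, and the KO2 libraries 244, 245 and 236. KO1 lay below control, and KO2 overlapped it. The log2 fold changes were -0.24 (SE 0.0343, adjusted p = 0.000637) and 0.03 (SE 0.0343, adjusted p = 0.508, 95% confidence interval -0.04 to 0.11). LARS1, the leucine enzyme that also acts as a leucine sensor for mTORC1, was at 134, 132 and 128 TPM in control, 114, 121 and 123 in KO1, and 137, 139 and 138 in KO2. Its fall in KO1 was -0.13 (SE 0.0384, adjusted p = 0.0218 in limma), and the call was lost without control replicate A (adjusted p = 0.0673), control replicate B (0.0664) or KO1 replicate A (0.0760). The other members of the complex, EPRS1, KARS1 and RARS1, were not called in KO1, with log2 fold changes of 0.10, 0.07 and 0.00.

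Outside the complex, NARS1, HARS1 (histidine), GARS1, SARS1 (serine) and TARS1 rose in KO1. NARS1 had 478, 457 and 460 TPM in control, 526, 538 and 522 in KO1, and 585, 565 and 599 in KO2, with no overlap between lines. Its log2 fold change was 0.19 in KO1 (SE 0.0332, adjusted p = 0.00211) and 0.33 in KO2 (SE 0.0332, adjusted p = 5.86e-05 in limma). GARS1 had 372, 356 and 342 TPM in control, 394, 405 and 403 in KO1, and 414, 424 and 430 in KO2, so both clones lay above control. The changes were 0.17 (SE 0.0362, adjusted p = 0.00557) and 0.24 (SE 0.0362, adjusted p = 0.000663). With the GC and length trend removed, GARS1 in KO1 was no longer called (0.06, adjusted p = 0.263). SARS1 rose by 0.14 in KO1 (adjusted p = 0.00911) and 0.23 in KO2 (adjusted p = 0.000420). Its KO1 call was lost with median centring (0.10, adjusted p = 0.0552) and with limma-voom (0.09, adjusted p = 0.0863). TARS1 rose by 0.10 (adjusted p = 0.0459) and 0.17 (adjusted p = 0.00532), and its KO1 call was lost without any 1 of control A, control B, control C, KO1 B, KO1 C and KO2 A (adjusted p up to 0.140). The call was also lost with median centring (0.07, adjusted p = 0.212), quantile normalization (0.07, adjusted p = 0.198), limma-voom (0.05, adjusted p = 0.283) and the neighbour median subtracted (0.06, adjusted p = 0.341). Because both contrasts use the same 3 control libraries, values in the clones are given side by side and are not independent of each other.

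Among the mitochondrial enzymes, MARS2 and CARS2 rose in both clones and TARS2 (threonine) fell in both. MARS2 was at 30.2, 30 and 28.5 TPM in control, 50.6, 48.0 and 50.5 in KO1, and 47.4, 47.2 and 50.8 in KO2. Both clones lay far above control and overlapped each other. The log2 fold changes were 0.75 (SE 0.0510, adjusted p = 4.81e-06) and 0.71 (SE 0.0510, adjusted p = 6.02e-06 in limma), or 168% and 164% of control. CARS2, which also makes cysteine persulfides, was at 30.3, 30.6 and 32.1 TPM in control, 40.1, 39.6 and 38.4 in KO1, and 39.0, 40 and 37.8 in KO2. Again the clones lay above control and overlapped each other, with changes of 0.35 (SE 0.0489, adjusted p = 0.000535) and 0.33 (SE 0.0489, adjusted p = 0.000670).

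TARS2 was at 67.6, 75.1 and 76.9 TPM in control, 63.5, 60.9 and 62.2 in KO1, and 63.0, 62.9 and 59.9 in KO2, with both clones below every control library. Its changes were -0.23 (SE 0.0537, adjusted p = 0.00819) and -0.24 (SE 0.0537, adjusted p = 0.00750 in limma). IARS2 had 245, 255 and 247 TPM in control, 217, 222 and 217 in KO1, and 230, 228 and 248 in KO2. KO1 lay below control and KO2 overlapped it, with changes of -0.19 (SE 0.0385, adjusted p = 0.00432) and -0.08 (SE 0.0385, adjusted p = 0.137). Weaker calls in KO1 were those of WARS2 (tryptophan, 0.21, adjusted p = 0.0235), EARS2 (-0.13, adjusted p = 0.0446) and SARS2 (serine, -0.12, adjusted p = 0.0470). WARS2 lost its call without control C, KO1 A or KO1 C (adjusted p up to 0.0811), with median centring (0.18, adjusted p = 0.0518) and with limma-voom (0.16, adjusted p = 0.124). EARS2 lost it without control B, control C, KO2 C or any 1 KO1 library (up to 0.133), and SARS2 without any 1 library except KO2 B (up to 0.150). With the GC and length trend removed, SARS2 was at -0.03 (adjusted p = 0.596). AARS2, NARS2, PARS2 (proline), VARS2 (valine) and YARS2 were not called in any contrast, with log2 fold changes against control from -0.15 (PARS2, KO1) to 0.15 (VARS2, KO1).

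**Figure D2:**
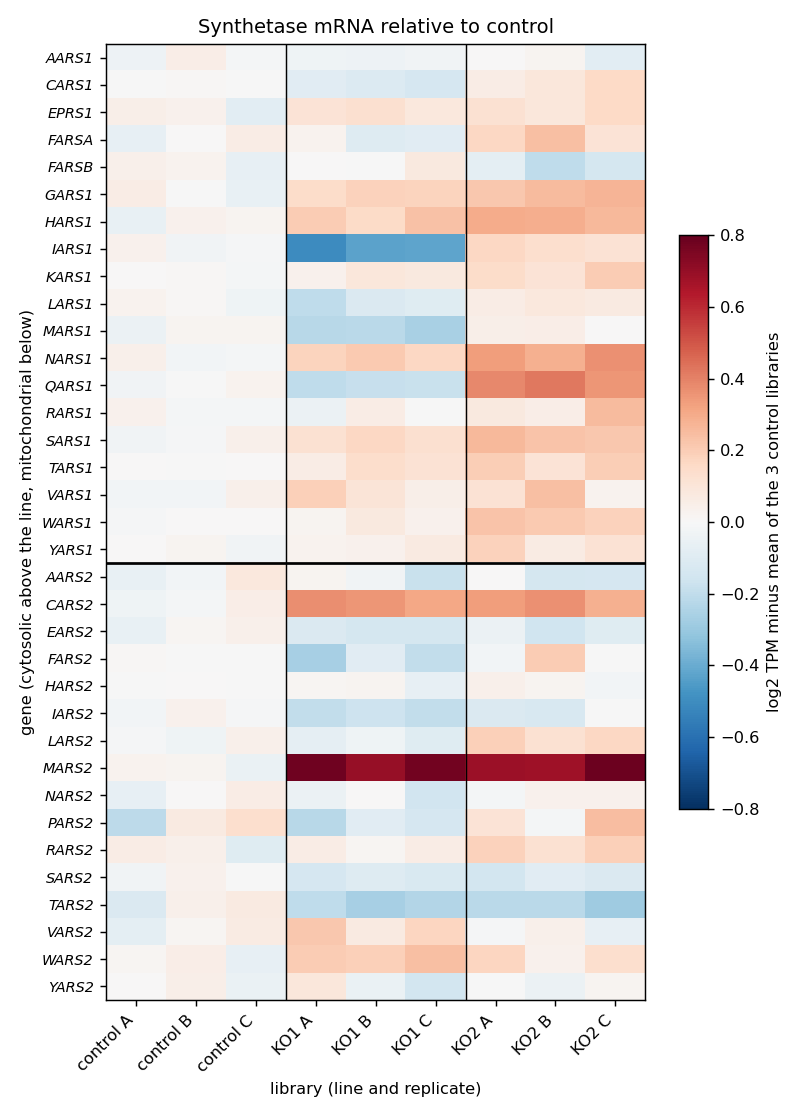
Log2 TPM of each synthetase (rows, 19 cytosolic above the black line and 16 mitochondrial below) in each of the 9 libraries (columns) minus the mean of its 3 control libraries, red for higher and blue for lower. IARS1, MARS1 and QARS1 are blue in all 3 KO1 libraries, QARS1 is red in all 3 KO2 libraries, and MARS2 and CARS2 are red in all 6 knockout libraries.

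In KO2 most cytosolic synthetases were higher than in control. Of the 19 cytosolic genes 12 rose and 0 fell, and 17 of 19 had a positive log2 fold change. The background was 30.4% called, 15.6% higher and 14.8% lower, in limma over the same 14512 genes. The cytosolic median was 0.14, against 0.01 over all tested genes, and it lay between 0.11 and 0.16 under the scaling, composition and position alternatives. Of the 16 mitochondrial genes 4 rose and 1 fell, with a median of 0.01. The complex had 4 of 7 called higher (median 0.13), and the cytosolic genes outside it 8 of 12 (median 0.17). VARS1 (valine) was at 147 ± 3.34 TPM in control, 159 ± 8.19 in KO1 and 161 ± 11.9 in KO2 (SD, n = 3), and RARS1 at 239 ± 4.24, 239 ± 9.18 and 261 ± 19.7, and neither was called in any contrast. Replicate ranges did not overlap control for 16 of 19 cytosolic genes (15 above, 1 below) and for 6 of 16 mitochondrial ones (4 above, 2 below). By that rule 43.7% of tested genes did not overlap (22.3% above, 21.4% below).

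Besides QARS1, NARS1, GARS1, SARS1, TARS1 and IARS1, the cytosolic genes that rose in KO2 were HARS1, WARS1 (tryptophan), FARSA, KARS1, EPRS1 and YARS1 (tyrosine). HARS1 was at 69.2, 73.8 and 73.3 TPM in control, 82.9, 80.3 and 84.7 in KO1, and 88.7, 88.2 and 86.4 in KO2, 3 ranges without overlap. Its changes were 0.20 (SE 0.0409, adjusted p = 0.00469) and 0.28 (SE 0.0409, adjusted p = 0.000551 in limma). WARS1, an interferon-inducible enzyme, was at 136, 137 and 137 TPM in control, 139, 144 and 140 in KO1, and 160, 158 and 155 in KO2. KO2 lay above both other lines, with changes of 0.05 in KO1 (adjusted p = 0.290) and 0.21 in KO2 (SE 0.0316, adjusted p = 0.000781). KARS1 rose in KO2 by 0.15 (SE 0.0336, adjusted p = 0.00653), from 313 ± 2.59 to 348 ± 11.9 TPM (SD, n = 3). The rises of FARSA (0.17, adjusted p = 0.0276), EPRS1 (0.12, adjusted p = 0.0461) and YARS1 (0.12, adjusted p = 0.0346) depended on single libraries. FARSA lost its call without control A, control B, KO2 A or KO2 B (adjusted p up to 0.0954), EPRS1 without any 1 library except control A (up to 0.145), and YARS1 without any 1 library except KO1 A and KO2 B (up to 0.126). EPRS1 and YARS1 also lost it with quantile normalization (0.10 and 0.09, adjusted p = 0.0999 and 0.117).

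Mitochondrial genes called in KO2, apart from MARS2, CARS2 and TARS2, were LARS2 (leucine) and RARS2 (arginine). LARS2 was at 39.4, 38.7 and 40.7 TPM in control, 37.6, 38.6 and 37.1 in KO1, and 45.1, 43.1 and 44.5 in KO2, so KO2 lay above both other lines. It rose in KO2 by 0.16 (SE 0.0453, adjusted p = 0.0242 in limma), a call lost without control A, control B, KO2 A or KO2 C (adjusted p up to 0.0873). RARS2 rose by 0.17 (SE 0.0530, adjusted p = 0.0375), a call kept only without control A or without KO2 B (adjusted p up to 0.123 in the other fits that left out 1 library). It was also lost with limma-voom (0.15, adjusted p = 0.125) and with the neighbour median subtracted (0.07, adjusted p = 0.365). Without control replicate B the number of synthetases called in KO2 fell from 17 to 11.

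**Figure D3:**
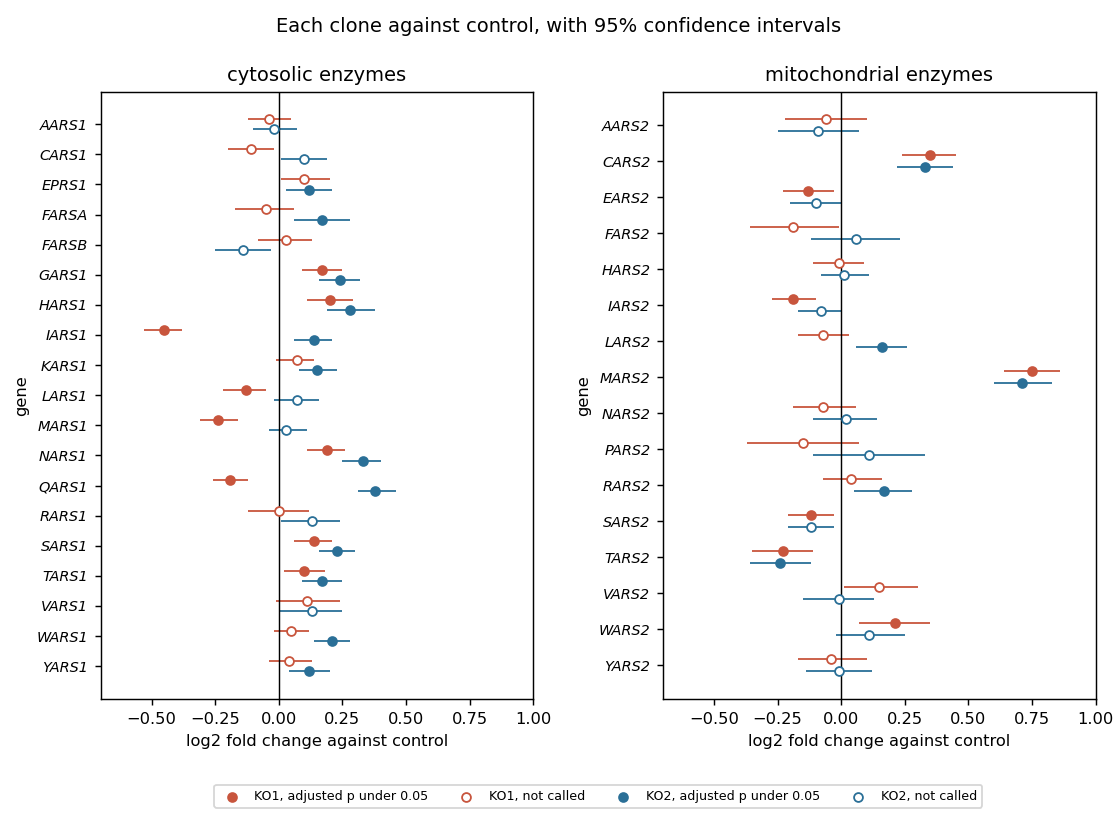
Log2 fold change against control (horizontal axis) of each cytosolic (left) and mitochondrial (right) synthetase in KO1 (red) and KO2 (blue), with 95% confidence intervals from limma and filled points for an adjusted p under 0.05. In KO2 the 12 filled cytosolic points all lie to the right of 0, and in KO1 the 4 filled cytosolic points to the left of 0 are IARS1, LARS1, MARS1 and QARS1.

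The clones differed directly in 12 synthetases, and in 11 of them KO2 was the higher. Of the cytosolic genes 9 were higher and 1 lower in KO2 than in KO1, and of the mitochondrial ones 2 were higher and 0 lower. The background was 28.7% called, 11.8% higher and 16.9% lower. Of all called genes 41.1% were higher in KO2, a share that became 55.5% with median centring, under which 19 synthetases were higher and 0 lower. The cytosolic median was 0.10 and the mitochondrial median 0.02, against -0.04 over all tested genes. In the complex 4 of 7 genes were higher in KO2, with a median of 0.20.

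IARS1 and QARS1 had the largest differences, at 0.59 (SE 0.0342, adjusted p = 2.91e-06) and 0.57 (SE 0.0323, adjusted p = 2.70e-06 in limma), which put KO2 at 151% and 149% of KO1. MARS1 differed by 0.27 (adjusted p = 0.000393), LARS1 by 0.20 (adjusted p = 0.00336), WARS1 by 0.16 (adjusted p = 0.00423) and NARS1 by 0.14 (adjusted p = 0.0111). The NARS1 call was lost with quantile normalization (0.11, adjusted p = 0.0593 in limma). CARS1 was not called against control in either clone (-0.11 and 0.10), yet it was at 51.8, 51.1 and 50.2 TPM in KO1 and 57.4, 58.6 and 61.5 in KO2. Control, at 55.0, 55.4 and 55.0, lay between the clones, and the difference of 0.21 was called (SE 0.0417, adjusted p = 0.00419). LARS2 differed by 0.23 (adjusted p = 0.00444) and FARS2 by 0.24 (adjusted p = 0.0410), the latter lost without control A, control B, control C, KO1 A, KO1 C or KO2 B (adjusted p up to 0.124), with limma-voom (adjusted p = 0.0767) and with the neighbour median subtracted (0.19, adjusted p = 0.0945). SARS1 differed by 0.10 (adjusted p = 0.0466), lost without any 1 library except control A and control C (adjusted p up to 0.140).

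The subunits of the cytosolic phenylalanine enzyme, a tetramer of FARSA and FARSB chains, moved in opposite directions between the clones. FARSA was at 518, 544 and 566 TPM in control, 553, 505 and 509 in KO1, and 607, 640 and 584 in KO2. FARSB was at 89.4, 88.6 and 82.9 TPM in control, 87.2, 86.7 and 91.6 in KO1, and 82.5, 75.5 and 78.8 in KO2. For FARSA KO2 lay above both other lines, and for FARSB it lay below them. KO2 exceeded KO1 by 0.22 for FARSA (SE 0.0499, adjusted p = 0.00815) and was lower by -0.17 for FARSB (SE 0.0483, adjusted p = 0.0280 in limma). The FARSB call was lost without KO1 A, KO1 C, KO2 B or KO2 C (adjusted p up to 0.105), with median centring (-0.12, adjusted p = 0.101), limma-voom (-0.13, adjusted p = 0.0750) and the neighbour median subtracted (-0.15, adjusted p = 0.0633). FARSB against control missed the threshold (-0.14, adjusted p = 0.0523). The FARSA to FARSB ratio was 6.25 ± 0.53 in control, 5.91 ± 0.40 in KO1 and 7.75 ± 0.63 in KO2 (SD, n = 3).

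As sums, the cytosolic set was 4733, 4755 and 4718 TPM in control, 4765, 4806 and 4762 in KO1, and 5317, 5299 and 5297 in KO2. The KO2 sums stood above all others, while those of KO1 lay just above control. The complex alone summed to 1743, 1735 and 1708 TPM in control, 1594, 1650 and 1623 in KO1, and 1911, 1895 and 1945 in KO2, so that KO1 lay below and KO2 above control. The mitochondrial set was 865, 897 and 887 TPM in control, 868, 858 and 840 in KO1, and 888, 875 and 902 in KO2, with control overlapping both clones and KO2 above KO1. The ratio of cytosolic to mitochondrial sums was 5.36 ± 0.0967 in control, 5.59 ± 0.0890 in KO1 and 5.97 ± 0.0930 in KO2 (SD, n = 3). These sums are a description and were not tested.

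**Figure D4:**
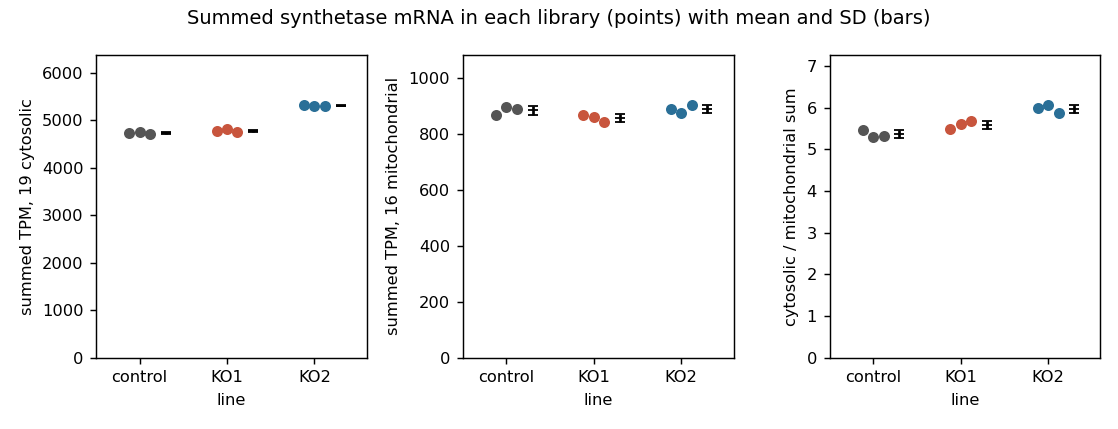
Summed TPM of the 19 cytosolic genes, of the 16 mitochondrial genes, and the ratio of these sums (vertical axes from 0), 1 point per library with the mean and SD of each line beside it. The cytosolic sums of KO2, 5297 to 5317, stand above those of the other lines, and the mitochondrial sums of control overlap those of both clones.

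Enzymes for the same amino acid in the 2 compartments differed widely in relative level. Averaged over all libraries, the ratio of cytosolic to mitochondrial mRNA ranged from 1.10 for isoleucine to 30.7 for phenylalanine (FARSA over FARS2). The methionine pair changed most between lines, from 8.0 ± 0.446 in control to 4.04 ± 0.164 in KO1 and 4.99 ± 0.302 in KO2 (SD, n = 3). In KO1 this joined the fall of MARS1 with the rise of MARS2, and in KO2 only MARS2 was called. For isoleucine IARS1 exceeded IARS2 in control (ratio 1.10 ± 0.0437) and KO2 (1.28 ± 0.0750) and was below it in KO1 (0.915 ± 0.0244). The threonine ratio went from 3.28 ± 0.228 in control to 4.14 ± 0.202 in KO1 and 4.35 ± 0.238 in KO2. TARS2 was called lower in both clones, and TARS1 was called higher in both with the limits on its KO1 call given above. The cysteine ratio was 1.78 ± 0.0588 in control, 1.30 ± 0.00971 in KO1 and 1.52 ± 0.0928 in KO2. Arginine stayed between 5.52 and 5.69 in the line means.

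Several of these genes lie where neighbouring genes moved with them. For each gene the median log2 fold change of the 50 nearest tested genes on its chromosome was set beside its own. Around MARS2 on chromosome 2 the neighbour median was 0.59 in KO1 and 0.47 in KO2. With it subtracted, MARS2 remained higher by 0.15 (adjusted p = 0.0390) and 0.24 (adjusted p = 0.00627 in limma). Around QARS1 on chromosome 3 the neighbour median was 0.03 in KO1 and 0.37 in KO2, and after subtraction QARS1 was at -0.22 in KO1 (adjusted p = 0.000474) and 0.02 in KO2 (adjusted p = 0.706). LARS2, also on chromosome 3, had neighbours at 0.35 in KO2 and turned to -0.19 (adjusted p = 0.0120).

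HARS1 and HARS2 (histidine) lie head to head on chromosome 5 on opposite strands, with 108 bases in common, beside the clustered protocadherin genes. Their neighbour medians were 0.55 and 0.60 in KO1 and 0.20 and 0.24 in KO2. HARS2 was at 49.9, 50.2 and 50 TPM in control, 50.5, 50.8 and 47.8 in KO1, and 51.4, 50.7 and 49.2 in KO2, with all lines overlapping and changes of -0.01 and 0.01 (95% confidence intervals -0.11 to 0.09 and -0.08 to 0.11). After subtraction HARS1 turned to -0.35 in KO1 (adjusted p = 0.00131) and was no longer called in KO2 (0.09, adjusted p = 0.283), and HARS2 was at -0.61 (adjusted p = 0.000162) and -0.23 (adjusted p = 0.0343). NARS1 on chromosome 18 had neighbours at 0.21 in KO1, and its KO1 rise ended at -0.02 (adjusted p = 0.658) while that in KO2 stayed at 0.25 (adjusted p = 0.000398). In contrast, neighbours of IARS1, MARS1, CARS2, GARS1, SARS1 and TARS2 had medians between -0.07 and 0.03 against control, and IARS1 was at -0.47 in KO1 after subtraction (adjusted p = 3.65e-05). Copy number was not measured, and its part in these values was not tested.

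**Figure D5:**
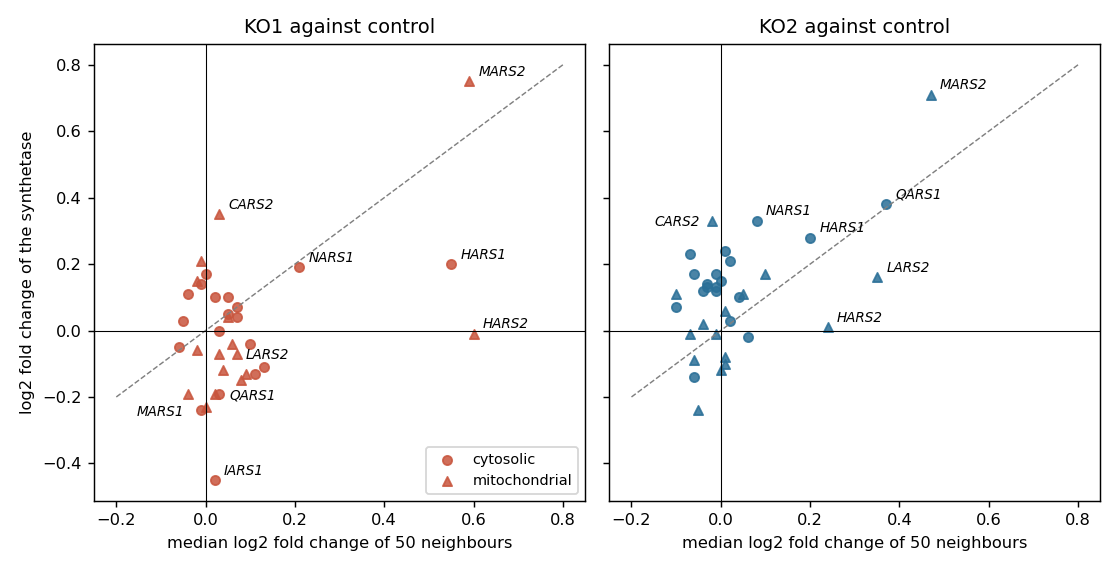
Log2 fold change of each synthetase (vertical axis) against the median log2 fold change of its 50 nearest tested genes (horizontal axis), for KO1 (left) and KO2 (right), circles cytosolic and triangles mitochondrial, with a dashed line of equality. MARS2 lies high on both axes in both clones, QARS1 lies on the line in KO2, and CARS2 and, in KO1, IARS1 lie away from 0 with neighbours near 0.

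Exons of 12 synthetase genes share bases with another gene that has values, 11 of them on the opposite strand. The library kit was directional, but none of the sources used here says whether counting used strand. Among these the overlap exceeded 10% of exon bases for SARS2, where 48.2% was shared with ENSG00000269547 on the same strand, so its reads may be split between them. VARS2 shares 63% of its exon bases with ENSG00000288473 on the same strand, and YARS2 shares 18.1% with ENSG00000286950 on the opposite strand. Unlike the gene beside SARS2, these genes have no values in the deposited table. Whether the annotation used for counting held them is not stated, so it is unknown whether VARS2 and YARS2 lost reads to them. ENSG00000269547 was also lower in KO1 (-0.22, adjusted p = 0.00924). On the opposite strand MARS1 shares 7.38% of its exon bases with ARHGAP9 and 5.05% with DDIT3, the stress factor CHOP. DDIT3 rose in both clones (0.39 and 0.31, adjusted p = 0.00322 and 0.0101 in limma) while MARS1 fell in KO1. HARS1 shares 7.7% of its exon bases with WDR55 on the opposite strand and 1.24% with DND1 on the same strand. The part of shared reads in these values was not tested.

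Genes that act with the synthetases were counted list by list, and each count is to be read against the 34.3% of all tested genes called in KO1 and the 30.4% in KO2. Among the 3 scaffold proteins of the multisynthetase complex, AIMP2 rose in KO1 (0.21, SE 0.0389, adjusted p = 0.00230), from 108 ± 1.45 to 125 ± 3.76 TPM, and was at 108 ± 3.41 TPM in KO2 (SD, n = 3). AIMP1 and EEF1E1 were not called. Of 14 charging partners and proofreading genes KO1 had 1 higher and 4 lower, and KO2 had 1 of each. SEPHS2, which makes selenophosphate for selenocysteine, rose in both clones (0.18 and 0.31), and EEFSEC, the selenocysteine-specific elongation factor, fell in both (-0.45 and -0.27). Of 29 tRNA maturation genes KO1 had 5 higher and 2 lower, and KO2 had 8 higher and 3 lower. DDX1, a helicase of the tRNA ligase complex, rose by 0.51 and 0.56, and TRPT1, the tRNA 2′-phosphotransferase, fell by 0.48 and 0.35 on the log2 scale. Of 29 genes of RNA polymerase III and its factors, which transcribe tRNA genes, 9 were called in KO1 (5 higher, 4 lower) and 4 in KO2 (3 higher, 1 lower). The shares called were thus near or below the background in KO1, and in KO2 only tRNA maturation, at 11 of 29, was above it.

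Genes that sense uncharged tRNA were measured alongside. Of 17 such genes and eIF2 pathway genes KO1 had 3 called in each direction, and KO2 had 6 higher and 3 lower, 6 of 17 beside 34.3% and 9 of 17 beside 30.4% of all tested genes. EIF2AK4, the kinase GCN2, fell in both clones, from 53.4 ± 2.30 TPM to 47.1 ± 0.833 in KO1 (-0.18, adjusted p = 0.0230) and 44 ± 2.22 in KO2 (-0.28, adjusted p = 0.00261 in limma). EIF2B1, a subunit of the eIF2 exchange factor, rose by 0.26 and 0.46. ATF4 mRNA, named after its values were seen, was at 554 ± 13.3 TPM in control, 499 ± 12.1 in KO1 and 605 ± 23.5 in KO2 (SD, n = 3). It was lower in KO1 (-0.15, adjusted p = 0.0113), higher in KO2 (0.13, adjusted p = 0.0247), and differed between the clones by 0.28 (adjusted p = 0.000499).

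Of 38 tested ATF4 targets outside the synthetases 13 were higher and 9 lower in KO1 (median 0.06), against 25 higher and 2 lower in KO2 (median 0.29). Directly between the clones 21 were higher and 6 lower in KO2 (median 0.23), against the backgrounds given above. CHAC1, which degrades glutathione, rose by 0.36 and 0.76, and SLC1A4, a neutral amino acid transporter, by 0.39 and 0.76. STC2, a secreted glycoprotein, rose by 0.90 and 0.63, and SLC7A11, the cystine importer, by 0.64 and 0.52. Other targets fell in KO1, and those given next were named after their values were seen. NUPR1 (-1.19), DDIT4 (-0.70) and GDF15 (-0.66) were called lower in KO1 and higher in KO2. TRIB3 (-0.51 and -0.28) and PYCR1 (-0.32 and -0.14) were called lower in both clones. Of the 6 synthetases with the response element core in their promoters, NARS1 and TARS1 were called higher in both clones (in KO1 with the losses given above), IARS1 fell in KO1 and rose in KO2, MARS1 fell in KO1, and CARS1 and AARS1 were not called against control. AARS1 was at 459, 490 and 467 TPM in control, 461, 458 and 462 in KO1, and 473, 480 and 445 in KO2, with overlap between all lines.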

How the data were processed

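The deposited table holds log2 TPM values per gene that the authors computed for the 9 input RNA-seq libraries. The submitters' processing notes name genome build hg38 and the tools edgeR 3.12.1, R 3.3.3, featureCounts, HISAT2 2.0.4, deepTools 3.0.2 and SAMtools 1.7. None of the sources used here gives the task of each tool, the annotation or the use of strand. Per the labels, 9 further libraries were immunoprecipitated with an m6A antibody, and these were not analysed here.

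The members and all gene lists were chosen with earlier results of these data known. Lines were compared with limma-trend (limma 3.58.1, R 4.3.3) on the deposited log2 values, fitting all 9 libraries together with a mean for each line and 6 residual degrees of freedom. Tests were two-sided, with Benjamini-Hochberg adjustment over the 14512 genes that averaged at least 1 TPM. A gene was called at an adjusted p under 0.05. The script was tested on simulated data. Fold changes are on the log2 scale as deposited, and a small prior count had been added before the logarithm. GENCODE 44 (hg38) gave gene positions for 15138 of the 15258 identifiers.

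Whole reads could be recovered from the steps of the values for 100% of genes (relative tolerance 1e-06), 84602764 in all, against a stated average of 20 times 1e+06 reads per sample that need not count the same reads. No replicate was a copy of another: chi-square between replicate counts was 1.24 to 3.96 per degree of freedom, above sampling noise.

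All 35 members are accounted for, those called in any of the 3 contrasts in depth. From each other list up to 4 genes were named by a rule. Those called in both clones with the same sign came first, by size, else those called in 1 clone. The ATF4 targets NUPR1, DDIT4, GDF15, TRIB3 and PYCR1 were named outside this rule. There were 21 alternatives. They were median centring, quantile normalization, log2(TPM + 1), log2(TPM + 5), no filter, a filter at 5 TPM, no variance trend, fitting the compared lines alone, a replicate block, limma-voom on recovered reads, a neighbour median (50 genes) subtracted, a GC and length trend subtracted, and leaving out each of the 9 libraries. No comparison of protein sequences was made, and values of some genes that this rule took are not reported here.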

Additional observations from a re-analysis of the deposited data

Results flagged for a closer look

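KO2 and KO1 differed, by limma's test of KO2 against KO1 with adjustment over all tested genes, in 12 synthetases, against 28.7% of all tested genes called. The log2 difference, KO2 minus KO1, was 0.59 for IARS1, 0.57 for QARS1, 0.27 for MARS1, 0.22 for FARSA, 0.21 for CARS1, 0.20 for LARS1, 0.16 for WARS1, 0.14 for NARS1, 0.10 for SARS1 and -0.17 for FARSB among cytosolic enzymes. It was 0.24 for FARS2 and 0.23 for LARS2 among mitochondrial enzymes. Of these, 9 were called in all 9 fits that left out 1 library, and FARS2, FARSB and SARS1 were not. With the neighbour median subtracted, QARS1 differed by 0.24 (adjusted p = 0.000490) and LARS2 by -0.05 (adjusted p = 0.498). With median centring FARSB was no longer called (-0.12, adjusted p = 0.101), nor was NARS1 with quantile normalization (0.11, adjusted p = 0.0593 in limma). Each clone is 1 line, so the knockout and any other difference between the clones cannot be told apart.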

How the results depend on the processing

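Of the synthetases called, 7 of 16 in KO1, 9 of 17 in KO2 and 7 of 12 between the clones kept their call and direction under all 21 alternatives. Leaving out 1 library gave 12 to 16, 11 to 15 and 9 to 12 calls. Between the clones, median centring gave 19 calls and the GC and length trend 20. The KO1 cytosolic median became 0.01 with median centring, -0.01 with limma-voom and -0.02 with the neighbour median subtracted, and the mitochondrial one -0.10, -0.11 and -0.12 (-0.09 to -0.01 with 1 library left out). Between the clones the cytosolic median became 0.15, 0.18 and 0.14 with centring, neighbours and the GC and length trend, and the mitochondrial one 0.07, 0.06 and 0.08 with centring, limma-voom and neighbours. Subtracting the neighbour median reversed HARS1 (-0.35) and NARS1 (-0.02) in KO1, HARS2 (-0.23) and LARS2 (-0.19) in KO2, and LARS2 between the clones (-0.05). Without the variance trend LARS1, EARS2, SARS2 and TARS1 lost their call in KO1, EPRS1, FARSA, IARS1, RARS2 and YARS1 in KO2, and FARSB, NARS1 and SARS1 between the clones. With only the lines compared in the fit SARS2 lost it in KO1, EPRS1, LARS2, RARS2 and YARS1 in KO2, and FARS2 and SARS1 between the clones. The causes were not tested.

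Deviations of same-letter libraries had correlations of -0.0736 to 0.0371, so no shared effect of the letter was seen. The labels do not say whether a letter marks a shared culture or day. A replicate block gave 11, 12 and 10 calls. Precision was limited by 3 libraries a line and, for the least abundant genes, by depth, since counting error alone was 10.5% at 91 reads.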

Other observations

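Elongation factors deliver charged tRNA to the ribosome, and amino acid carriers supply its amino acids. Of all tested genes 34.3% were called in KO1 and 30.4% in KO2. Of 14 cytosolic elongation genes KO1 had 2 called in each direction, and KO2 had 5 higher and 2 lower. EEF1A2, a tissue-restricted form of the factor that brings aminoacyl-tRNA to the ribosome, fell from 63.7 ± 3.53 TPM in control to 44.2 ± 5.36 in KO1 and 11 ± 1.11 in KO2 (SD, n = 3). Its log2 fold changes were -0.54 (adjusted p = 0.00288) and -2.54 (adjusted p = 1.37e-07 in limma). DPH2, an enzyme of diphthamide synthesis on EEF2, rose by 0.14 and 0.28. Of 13 mitochondrial translation factors KO1 had 1 higher and 1 lower, and KO2 had 2 higher and 0 lower, with MTRF1L, a release factor, at 0.28 in both. In KO1 the 4 of 14 and 2 of 13 genes called were below the background share, and in KO2 the 7 of 14 elongation genes were above it and the 2 of 13 below.

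Of 28 tested amino acid transporters KO1 had 13 higher and 3 lower, and KO2 had 10 higher and 1 lower. These counts are not separate from those of the ATF4 targets above. SLC1A4, SLC1A5, SLC3A2, SLC6A9, SLC7A1, SLC7A5, SLC7A11 and SLC38A2 are on both lists. SLC38A1, a glutamine carrier, rose by 0.54 and 0.45, and SLC7A5, the large neutral amino acid carrier, by 0.54 and 0.22. Between the clones 5 transporters were higher and 9 lower in KO2, against 11.8% higher and 16.9% lower among all tested genes. Outside the 35 genes, TARS3, a cytosolic threonine enzyme, was at 4.41 ± 0.941, 5.13 ± 0.431 and 3.72 ± 0.400 TPM (SD, n = 3) and was not called in any contrast.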
